A study of Mus musculus with 7 samples.

Results

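The ductal cells of the i4F pancreas were 976 cells of 3 mice, 238 from the library labelled i4F 1, 211 from i4F 2 and 527 from i4F 3. They were all the cells that the authors' deposited annotation places in clusters whose name begins with Ductal, out of 25643 cells in the i4F libraries and 58473 in the series. The UMIs of these cells (unique molecular identifiers, 1 per captured mRNA molecule) were summed per mouse, so that the mouse was the replicate. The cells given the same name in 2 WT mice (753 and 621 cells) and in 2 mice given caerulein (334 and 238 cells) served for comparison. Per the study's methods, the WT and i4F cells were clustered and annotated by hand separately. Whether the name covers the same cells in each group was not tested. Levels are given in CPM, the UMIs of a gene scaled to an equal total of ductal UMIs in every mouse, with the totals corrected by the trimmed mean of M values (TMM).

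All mice were 2 months old and are labelled C57BL/6, and per the study's methods the i4F strain was made on C57BL/6J.Ola.Hsd. The i4F mice, of the genotype i4F-B, are heterozygous for a transgene of the reprogramming factors OSKM (Oct4, Sox2, Klf4 and c-Myc) that doxycycline switches on and that is inserted in the Pparg gene, and for the reverse tetracycline transactivator (rtTA) in the Rosa26 locus, so that neither is limited to duct cells. The i4F and the WT mice both drank doxycycline at 1 mg/ml with 7.5% sucrose for 7 days. The caerulein mice were wild type and received 7 hourly injections of caerulein at 100 µg/kg on each of 2 days, which causes a mild pancreatitis, and no doxycycline. In each group a mouse gave 1 library.

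Pancreatic ducts are lined by a simple epithelium of keratin-positive cells that carry the enzymes secreted by acinar cells to the gut and add bicarbonate and water through CFTR and other transporters. Duct cells keep the transcription factors of the embryonic pancreatic cords, such as SOX9 and ONECUT1, in adult life. After injury, acinar cells can take on duct genes, which is called acinar-to-ductal metaplasia, and duct cells themselves turn on secreted defence proteins, chemokines and matrix proteases.

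The 5 duct markers were present in the cells of each i4F mouse. Krt19, an intermediate filament gene of simple epithelia, was at 661, 1067 and 1055 CPM in i4F 1, 2 and 3, against 1009 and 873 CPM in the WT mice and 949 and 1114 CPM after caerulein. Sox9, the transcription factor that marks ducts, was at 256, 406 and 572 CPM in the i4F mice and 425 and 489 CPM in the WT mice. For Cftr, the chloride and bicarbonate channel, the i4F values were 89.4, 79.0 and 101 CPM and the WT values 69.4 and 49.9 CPM. The i4F mice overlapped the WT mice for Krt19 and Sox9 and lay above them for Cftr (edgeR adjusted p = 0.329). Epcam, a surface adhesion molecule of epithelia, was as spread within a group as between groups, at 257 and 1462 CPM in WT and 1217, 899 and 1214 CPM in i4F mice. Krt7 was at 169.8 and 233 CPM in WT mice and at 530.4, 604 and 226 CPM in i4F mice, where only the library labelled i4F 3 lay within the WT range.

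The library labelled i4F 3 stood apart from the other 2 i4F libraries. In a principal component analysis of 11619 genes, the first component, with 55.2% of the variance, placed i4F 1 and i4F 2 at 52.3 and 38.1 beside the caerulein mice at 55.6 and 47.1. It placed i4F 3 at -56.0 beside the WT mice at -76.7 and -60.4. Across the same genes, i4F 3 had Spearman correlations of 0.932 and 0.954 with the WT mice and of 0.834 and 0.860 with i4F 1 and i4F 2, whereas i4F 1 and i4F 2 correlated at 0.940. rtTA, the transgene of the i4F mice, was found in 27.7% of the ductal cells of i4F 3, near its share in i4F 1 and i4F 2. Called genes are counted below with and without this library, and shares and sub-clusters are given per mouse.

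**Figure D1:**
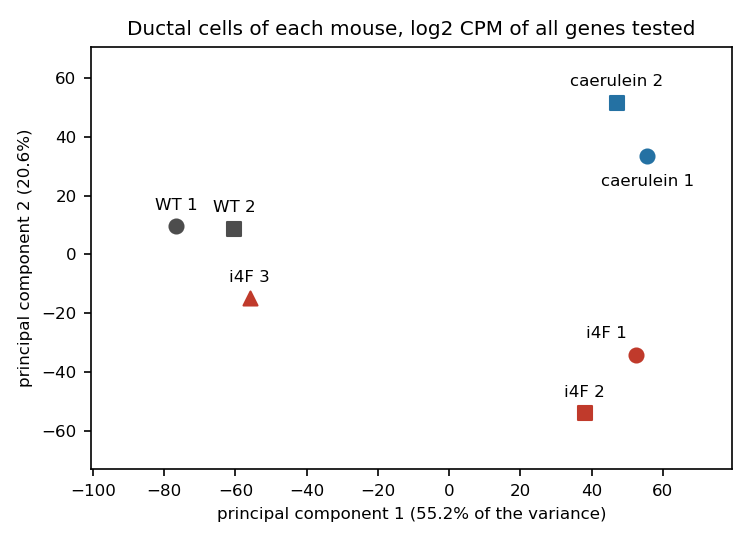
Ductal cells of the 7 mice on the first 2 principal components of log2 CPM (axes in component units, with the percent of variance), 1 point per mouse, WT in grey, i4F in red and caerulein in blue. i4F 1 and i4F 2 lay at 52.3 and 38.1 on the first component and i4F 3 at -56.0, near the WT mice.

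The ductal cells gave 811012 to 2077066 UMIs per i4F mouse, 4187255 and 5930138 per WT mouse and 812871 and 2480678 per caerulein mouse, with a median of 2667 to 4187 UMIs per cell in i4F and 2768 to 5590 in the other mice. No cell barcode was shared between the ductal cells of different libraries. Ductal barcodes were not compared with those of other cell types. Transcripts used as markers of other cells were present in the sums. Some of them were common in the ductal cells of WT mice too. In WT 1, the immune marker Cd14 was found in 56.2% and the acinar marker Nr5a2 in 48.3% of ductal cells, whereas the immune marker Ptprc was found in 0%. The sums are therefore no measure of other cells alone, and the limit on markers used below counts such genes as well. Sums of markers are in CPM of the plain ductal total of the mouse, with no TMM correction. All 22 immune markers together reached 2796, 1956 and 1227 CPM in the i4F mice, 565 and 523 CPM in the WT mice and 3107 and 2659.7 CPM after caerulein, and of the 16 that could be tested 14 were higher and 1 lower in i4F than in WT without i4F 3 (13.7% and 12.8% of all genes tested). The 12 stellate cell markers summed to 4921, 2133 and 600.4 CPM in i4F and 1066 and 1168 CPM in WT mice. Acinar markers, of which 10 of 29 are listed in the deposited counts, summed to 124, 211 and 1306 CPM in i4F against 678 and 585 CPM in WT mice, and 8 of 8 tested were lower without i4F 3. Digestive enzyme genes such as Cpa1, Cela1, Ctrb1, Prss2 and Pnlip are not among those listed. This sum is therefore no measure of acinar RNA as a whole. The 14 endocrine markers (11 listed) summed to 13.6 to 55.8 CPM in i4F and 76.7 and 715 CPM in WT. The 11 endothelial markers (58.3 to 129 CPM), the 8 mesothelial markers (13.6 to 25.4 CPM) and the 8 tuft cell markers (19.3 to 59.0 CPM) were low in the i4F mice, with the defining tuft genes Trpm5, Pou2f3 and Il25 at 0, and the 5 red blood cell markers reached at most 2.74 CPM. A subset of cells in which at most 2 of the 22 immune and 2 of the 12 stellate markers were detected was used to repeat the counts below, chosen after seeing the data. It kept 119, 154 and 460 ductal cells of i4F 1, 2 and 3, 664 and 540 of the WT and 114 and 167 of the caerulein mice. A limit on detected markers also tends to remove deeper cells.

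The transactivator was detectable in the ductal cells of each i4F mouse, whereas the Oct4 gene had no UMI there. rtTA was at 66.3, 93.0 and 102 CPM and was found in 28.2%, 26.1% and 27.7% of the i4F ductal cells, against 1 cell of 753 and 1 of 621 in the WT mice and no cell of the caerulein mice. In i4F endothelial cells it was found in 4.82%, 7.16% and 8.13% of the cells, and in i4F acinar cells in 13.1%, 12.9% and 2.63%, where the cells were shallower (medians of 774 to 821 UMIs per endothelial and 606 to 2020 per acinar cell, against 2667 to 4187 per ductal cell). Pou5f1, the gene of Oct4, had no UMI in the 238, 211 and 527 i4F ductal cells, which allows shares of cells with a UMI of up to 1.26%, 1.42% and 0.569%, from counting error alone. This does not limit the share of cells that express it. In WT ductal cells, which carry no cassette and were deeper, Pou5f1 UMIs were found in 9 of 753 and 1 of 621 cells (1.20% and 0.161%), and in no ductal cell of the caerulein mice. In acinar cells of the i4F mice it was found in 20 of 594, 62 of 807 and 0 of 2130 cells. Klf4 was at 188, 242 and 226 CPM in i4F and 167 and 173 CPM in WT ductal cells (edgeR adjusted p = 0.428, and 0.257 without i4F 3). Myc, the gene of c-Myc, was at 87.2, 153 and 151 CPM in i4F and 108 and 72.6 CPM in WT mice (edgeR adjusted p = 0.403, and 0.364 without i4F 3). The counts do not separate the endogenous genes from the cassette. Of the 21 reprogramming and pluripotency genes 5 passed the filter on low counts, and a low level of the others was not detectable at this depth.

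The first comparison asked which genes differ between the ductal cells of i4F and WT mice under the same doxycycline. With all 7 mice in the fit, rtTA was the only gene of 11619 past an adjusted p of 0.05 in edgeR (1 higher, 0.00861% of the genes tested), with a log2 difference of 8.56 ± 0.48 (± standard error, edgeR adjusted p = 0.00313), a fitted value that rests on 1 UMI per WT mouse and is no bound. No gene was called lower by edgeR, although 2016 genes had an unadjusted p under 0.05, and DESeq2 called 348 higher and 25 lower. Leaving out WT 1 or WT 2 in place of i4F 3 left no gene called by edgeR (800 and 1456 with an unadjusted p under 0.05). Without i4F 3, edgeR called 1536 genes higher (13.7%) and 1430 lower (12.8%) of 11197, so that the count depended on this library. In the comparison with WT, a gene whose p is given below as without i4F 3 therefore missed the threshold with all mice. This library was set aside after its place beside the WT mice was seen, which left i4F 1 and i4F 2, further from WT. A p without i4F 3 thus describes i4F 1 and i4F 2 and does not test the i4F group as a whole. In the subset of cells with few markers of other types, again without i4F 3, 685 genes were higher (10.3%) and 695 lower (10.5%) of 6629. Over all genes, whichever their p, the 3 i4F mice were above both WT mice in 14.8% and below both in 19.7% of the 11619 genes (34.5% in all).

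The genes described first are those with the smallest p among genes whose i4F mice all lay on the same side of the WT mice. The 12 higher ones were rtTA, Lrg1, Reg3a, Lcn2, Rps29, Tnfaip3, Gm14303, Slfn2, Rps28, Il1rn, Mmp7 and Plac8, of which only rtTA passed the threshold with all mice. The bases upstream of the RefSeq start of 3 of them (RefSeq, build GRCm38.p6, read 5′ to 3′ on the strand of the gene) are shown because Lcn2 and Mmp7 were highest in ductal cells among 5 cell classes of every i4F mouse and Lrg1 had the smallest p after rtTA. Capitals mark a match to TTGCNNAA, a core sequence of C/EBP factors, searched on both strands with N for any base over the 250 bases before the start. This sequence was present in 5 of the 14 RefSeq promoters of the named higher genes (9 of the 12 genes had an entry) and in 9.56% of 32851 mouse promoters of that length. A loose form of the NF-κB core, GGNNTTTCC, searched on both strands too, was present in 4 of the 14 and in 4.93% of all promoters, and in none of the 3 shown. Some of the 14 belong to the same gene and overlap. GENCODE annotates untranslated bases of Lcn2 and Lrg1 upstream of the RefSeq start, and the 192 and 195 bases shown for them end before these. The stretch shown for Lcn2 lies inside a longer transcript that GENCODE also annotates for this gene, over parts of an exon and of the intron after it.
Lcn2, minus strand, chr2:32387798-32387989: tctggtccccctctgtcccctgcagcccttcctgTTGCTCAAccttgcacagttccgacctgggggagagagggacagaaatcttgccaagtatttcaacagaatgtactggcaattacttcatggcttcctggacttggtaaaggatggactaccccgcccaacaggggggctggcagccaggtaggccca
Mmp7, plus strand, chr9:7691840-7692089: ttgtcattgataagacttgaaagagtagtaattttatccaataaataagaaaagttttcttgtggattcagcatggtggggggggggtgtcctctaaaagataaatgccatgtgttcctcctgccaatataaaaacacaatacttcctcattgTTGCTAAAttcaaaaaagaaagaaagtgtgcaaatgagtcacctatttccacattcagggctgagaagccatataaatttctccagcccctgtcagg
Lrg1, minus strand, chr17:56122002-56122196: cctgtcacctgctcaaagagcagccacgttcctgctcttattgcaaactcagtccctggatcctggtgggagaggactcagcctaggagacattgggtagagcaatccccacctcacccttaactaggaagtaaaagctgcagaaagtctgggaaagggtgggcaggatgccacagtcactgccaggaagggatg

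Lcn2 (chromosome 2, 32384633 to 32388252, GRCm38) encodes lipocalin 2, which binds bacterial siderophores and thereby withholds iron. Its level was 477 and 308 CPM in the WT mice and 19557, 25160.4 and 3239 CPM in i4F 1, 2 and 3, and 12747 and 11849.6 CPM after caerulein. Every i4F mouse lay above every WT mouse, i4F 3 between the groups, with a log2 difference of 5.35 ± 0.87 (edgeR adjusted p = 0.19) and of 5.83 ± 0.33 without i4F 3 (edgeR adjusted p = 0.000115). Lcn2 UMIs were found in 95.4%, 94.8% and 75.5% of i4F ductal cells, in 56.4% and 52.5% of WT ductal cells, and in 9.65%, 23% and 6.63% of i4F endothelial cells. Whether those of endothelial cells came from the cells or from free RNA was not tested.

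Mmp7 (chromosome 9, 7692090 to 7699585) encodes matrilysin, a matrix metalloprotease of injured epithelia. It rose from 26.4 and 28.4 CPM in the WT mice to 787 and 776 CPM in i4F 1 and i4F 2, with 115 CPM in i4F 3 and 1011 and 1065 CPM after caerulein. Its log2 difference was 4.35 ± 0.79 (edgeR adjusted p = 0.19) and 4.83 ± 0.20 without i4F 3 (edgeR adjusted p = 3.39e-05). Outside the ductal cells, Mmp7 was at 14.2, 7.16 and 0 CPM in acinar cells and at most 2.27 CPM in endothelial, stellate and immune cells of the i4F mice.

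Lrg1 (chromosome 17, 56119678 to 56122001) encodes a leucine-rich glycoprotein of the acute-phase response. Its level was 18.9 and 18.8 CPM in WT, 344, 363 and 156 CPM in i4F and 281 and 292 CPM in caerulein mice, and the log2 difference from WT was 3.93 ± 0.42 (edgeR adjusted p = 0.0649) and 4.23 ± 0.19 without i4F 3 (edgeR adjusted p = 3.68e-05). Lrg1 was higher still in other cells, since endothelial cells of the i4F mice held 1978, 2445 and 592 CPM and acinar cells 817, 1979 and 392 CPM of their own totals.

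The remaining higher genes were also found in other cells of the same mice. Il1rn, the interleukin 1 receptor antagonist, was at 3.48 and 1.37 CPM in WT and 167, 176 and 18.9 CPM in i4F ductal cells (log2 difference 5.53 ± 1.00, edgeR adjusted p = 0.19, and 0.00012 without i4F 3). Tnfaip3, an inhibitor of NF-κB signalling, was at 27.4 and 23.1 CPM in WT and 87.2, 131 and 67.9 CPM in i4F mice. Each lay higher in all 3 i4F mice. Slfn2, which leukocytes express, was at 0.756 and 2.29 CPM in WT and 66.3, 33.1 and 14.6 CPM in i4F mice, and Plac8 at 8.01 and 5.72 CPM in WT and 129, 72.6 and 28.1 CPM in i4F mice. In immune cells of the i4F mice, Il1rn was at 421, 283 and 106 CPM and Tnfaip3 at 352, 367 and 159.9 CPM, above the ductal levels of each mouse, Slfn2 was at 1701, 2065 and 415 CPM and Plac8 at 417, 769 and 454 CPM, and their part in the ductal values was not tested. Rps28 and Rps29, which encode proteins of the small ribosomal subunit, and Gm14303 were higher in every i4F mouse than in both WT mice in each of the 5 classes of cell. Rps29 was at 269 and 352 CPM in WT and 899.9, 932 and 828 CPM in i4F ductal cells, and at 357 and 441 CPM in WT and 1114, 1345 and 881 CPM in i4F endothelial cells.

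Reg3a, a lectin secreted by acinar cells in pancreatitis, was at 3.63 and 0.458 CPM in WT and 76.7, 135 and 441 CPM in i4F ductal cells. Acinar cells of the i4F mice held 6365, 7092 and 10856 CPM of it, and endothelial cells, which should lack it, held 136, 287 and 1215 CPM of their own totals. The share of cells with a Reg3a UMI was 21.4%, 35.1% and 72.5% in ductal and 16.1%, 26.4% and 68.7% in endothelial cells. The ductal shares lay above the endothelial ones and the ductal CPM below, in cells that differed in depth (medians of 2667 to 4187 and 774 to 821 UMIs), and how much of the ductal Reg3a came from free RNA was not tested. In i4F 3, Reg2 was found in 99.4% of ductal and 99.7% of endothelial cells, and Muc5ac, a gastric mucin, in 4.36% and 4.07%.

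**Figure D2:**
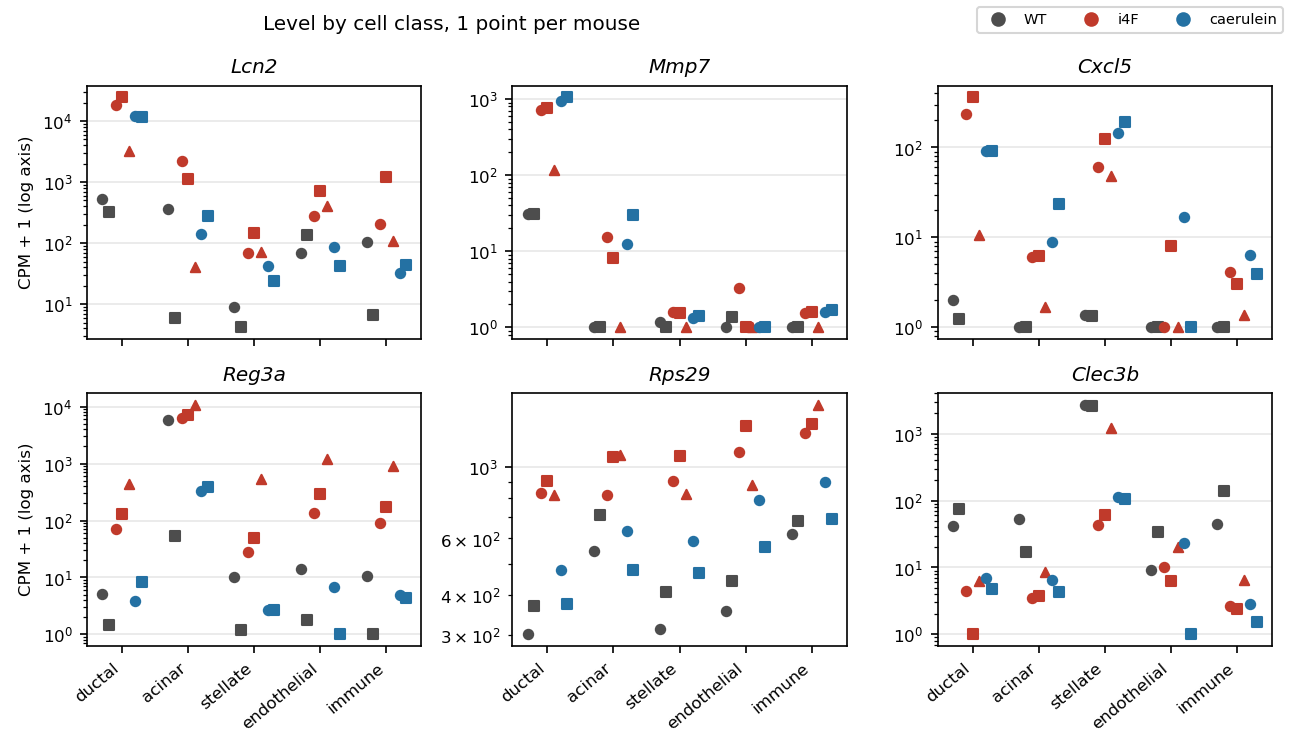
CPM + 1 of 6 genes (log axes) in ductal, acinar, stellate, endothelial and immune cells, each relative to the total of that class in that mouse, 1 point per mouse, WT grey, i4F red and caerulein blue, with circle, square and triangle for replicates 1, 2 and 3. Lcn2 and Mmp7 were highest in ductal cells, Reg3a was highest in acinar cells, Clec3b was highest in stellate cells, and Rps29 was higher in i4F than in WT mice in each class.

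Among the lower genes with the smallest p was Ccnd1. It encodes cyclin D1, the partner of the G1 cyclin-dependent kinases, and fell from 1273 and 1105 CPM in the WT mice to 305 and 299 CPM in i4F 1 and i4F 2, with 543 CPM in i4F 3 and 678 and 675 CPM after caerulein. The log2 difference was -1.63 ± 0.30 (edgeR adjusted p = 0.19) and -1.97 ± 0.18 without i4F 3 (edgeR adjusted p = 0.000472). All 3 i4F mice lay below both WT mice and below both caerulein mice.

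Another 8 of the lower genes were higher in WT ductal cells than in the other 4 classes of WT cells. Cdo1, which oxidizes cysteine, was at 91.6 and 64.1 CPM in WT and 14.2, 19.1 and 33.5 CPM in i4F mice. Hs6st2, a heparan sulfate sulfotransferase, was at 109.7 and 80.6 CPM in WT and 39.5, 36.9 and 47.1 CPM in i4F mice. Gas2, a cytoskeletal protein of growth arrest, was at 44.0 and 41.2 CPM in WT and 6.70, 15.3 and 10.2 CPM in i4F mice. All 3 i4F mice lay lower for each of these enzymes and for Gas2. Ppp2r2b, a regulatory subunit of protein phosphatase 2A, was at 84.8 and 87.5 CPM in WT and 10.4, 11.5 and 31.5 CPM in i4F mice. Alb, the albumin gene, was at 31.7 and 33.4 CPM in WT and 8.19, 5.09 and 8.73 CPM in i4F mice. Pfn2, an actin-binding profilin, was at 37.2 and 39.6 CPM in WT and 18.6, 11.5 and 15.5 CPM in i4F mice, and 1700049E15Rik and 3830406C13Rik were the others of these 8. That the groups did not overlap for these was part of the rule that chose them. Their edgeR adjusted p was 0.182 to 0.19 with all mice, and each fell without i4F 3 (edgeR adjusted p 0.000422 to 0.0117). Gsn, an actin-severing protein, was at 452 and 630.1 CPM in WT and 179.5, 140.1 and 133 CPM in i4F ductal cells. Clec3b, a plasminogen-binding lectin, was at 37.0 and 70.1 CPM in WT and 3.72, 0 and 5.34 CPM in i4F ductal cells. Both are genes of stellate cells here. WT stellate cells held 25703 and 27257 CPM of Gsn and 2709.8 and 2587 CPM of Clec3b, and in cells with few markers of other types the log2 difference of Gsn was -0.00093 (edgeR adjusted p = 0.998, without i4F 3). The remaining lower gene was Hist1h2bc, a histone gene, at 209.6 and 175 CPM in WT and 82.7, 54.8 and 75.7 CPM in i4F mice, and it was higher in acinar than in ductal cells of the WT mice.

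**Figure D3:**
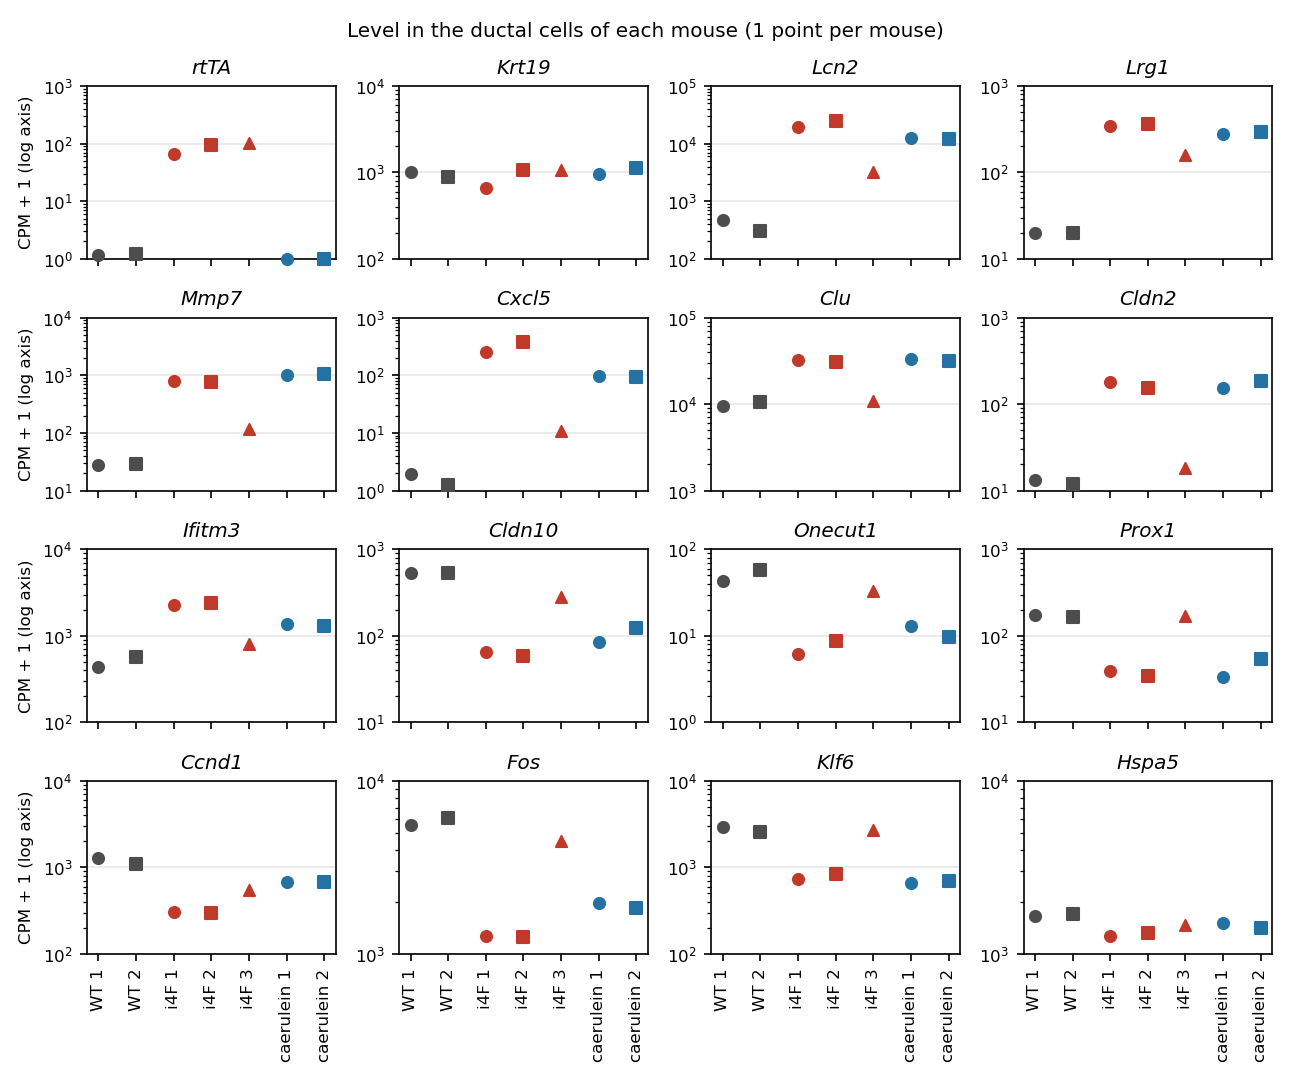
CPM + 1 (log axes) of 16 genes in the ductal cells of each mouse, 1 point per mouse, WT grey, i4F red and caerulein blue, with circle, square and triangle for replicates 1, 2 and 3. Lcn2 was at 19557, 25160.4 and 3239 CPM in the i4F mice and Ccnd1 at 305, 299 and 543 CPM, and for Clu, Cldn2, Prox1, Fos and Klf6 the triangle of i4F 3 lies near the WT points.

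Gene groups were then counted without i4F 3, where edgeR could call them. Each count over all ductal cells is set against the 13.7% higher and 12.8% lower of all genes tested. Counts in cells with few markers of other types are set against the 10.3% higher and 10.5% lower of the 6629 genes tested there. The choice to leave out i4F 3 was made after seeing the data, and the counts describe i4F 1 and i4F 2 and not the i4F group as a whole. The one gene called with all mice, rtTA, belongs to no group. The median log2 difference over all genes was -0.026 with all mice and -0.054 without i4F 3. The highest shares of higher members were those of the cell cycle, complement, chemokine, injury and interferon groups. The highest shares of lower members were those of the immediate early genes, heat-shock chaperones, duct transcription factors, the small MHC class II group and the keratins. Whether these shares differ from the background was not tested. In cells with few markers of other types (10.3% higher and 10.5% lower of all genes), the heat-shock chaperones had 5 of 15 members lower, the immediate early genes 11 lower and 2 higher of 18, and the p53 and senescence genes 3 higher and 1 lower of 12. The junction genes there had 2 higher and 2 lower of 18, near the shares of all genes. The keratins had 1 higher and 1 lower of 7, the Notch, Hippo and Wnt genes 2 higher and 1 lower of 15, MHC class I 1 lower of 15 and the NK ligands 0 of 3.

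**Figure D4:**
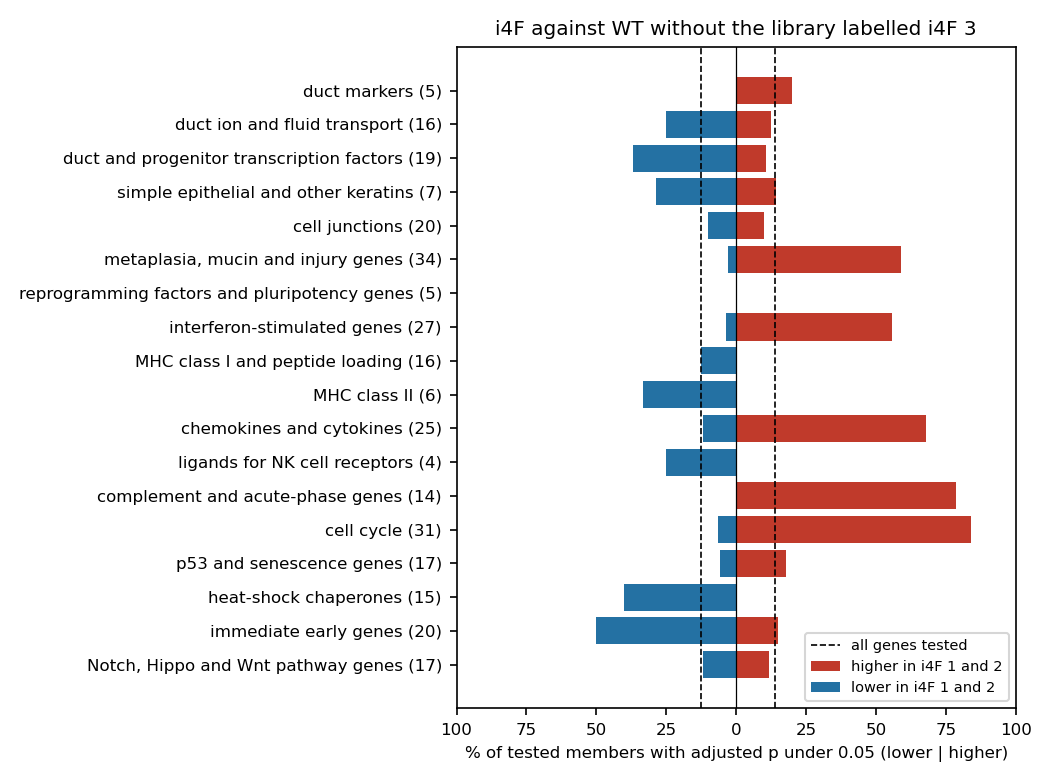
Percent of the tested members of each gene group that edgeR called higher (red, to the right) or lower (blue, to the left) in i4F 1 and i4F 2 than in WT ductal cells, with the number tested in brackets and dashed lines at the shares of all genes tested (13.7% and 12.8%). The cell cycle group reached furthest to the higher side (26 of 31 members) and the immediate early group furthest to the lower side (10 of 20).

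Of the metaplasia, mucin and injury genes, 36 of 50 could be tested, 34 without i4F 3, where 20 were higher and 1 lower. The median log2 difference was 1.29 with all mice and 1.53 without i4F 3, and in cells with few markers of other types 18 of 31 were higher and 1 lower. Clu, the extracellular chaperone clusterin, was at 9455 and 10474 CPM in WT, 32378 and 31007 CPM in i4F 1 and 2, 10764 CPM in i4F 3 and 33626 and 31673 CPM after caerulein (edgeR adjusted p = 0.222, and 0.00171 without i4F 3). Spp1, the matrix phosphoprotein osteopontin, was at 20392 and 18950.5 CPM in WT, 37082 and 33942 CPM in i4F 1 and 2 and 12568 CPM in i4F 3 (edgeR adjusted p = 0.0252 without i4F 3). i4F 3 thus lay beside the WT mice for Clu and below them for Spp1. Tm4sf4, a tetraspanin-like membrane protein, was the lower member, at 1933 and 1915 CPM in WT and 737, 689 and 1379.7 CPM in i4F mice (edgeR adjusted p = 0.00127 without i4F 3). The group includes Reg3a and Reg3b, and Reg3b too was lower in i4F ductal (797, 1790.4 and 3974 CPM of the class total) than in i4F endothelial cells (1279.6, 4273 and 11829 CPM). Tff1, a gastric trefoil peptide, reached 249 UMIs in i4F 1, but these came from 8 of 238 cells, and i4F 2 and i4F 3 held 1 and 2 UMIs.

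Chemokines and cytokines were higher in 17 and lower in 3 of 25 tested members without i4F 3 (26 of 31 with all mice), with a median log2 difference of 2.36 with all mice and 2.68 without i4F 3. Cxcl5, a ligand of CXCR2 that attracts neutrophils, was at 0.907 and 0.229 CPM in WT (6 and 1 UMIs), 255, 371 and 9.70 CPM in i4F and 97.7 and 92.6 CPM after caerulein (edgeR adjusted p = 0.19, and 4.3e-05 without i4F 3). In i4F 1 and i4F 2 its level in ductal cells exceeded that in stellate cells (59.6, 122 and 46.9 CPM in i4F 1, 2 and 3), whereas in i4F 3 a single one of the 527 ductal cells held all of its Cxcl5 UMIs, so that no order is read there. Cxcl2, which binds the same receptor, was at 42.2 and 147 CPM in WT and 3869.8, 5737 and 360.0 CPM in i4F ductal cells (edgeR adjusted p = 0.000953 without i4F 3). Cxcl1, another ligand of this receptor, was at 198 and 289 CPM in WT and 1003, 1992 and 218 CPM in i4F mice (edgeR adjusted p = 0.00357 without i4F 3). For each of these ligands i4F 3 lay nearer to the WT mice than i4F 1 and i4F 2 did. Immune cells held 21502, 26777 and 4274 CPM of Cxcl2 in i4F mice, and the immune markers rose in the same ductal sums, as given above. In cells with few markers of other types, 10 of 14 members were higher and 2 lower, with Cxcl5, Cxcl2, Cxcl1 and Cxcl16 among the higher. The lower members were Cxcl12, Tgfb2 and Cxcl10. Cxcl12, the ligand of CXCR4, was at 106 and 90.4 CPM in WT and 35.8, 42 and 65.5 CPM in i4F mice (edgeR adjusted p = 0.00582 without i4F 3). Tgfb2, a transforming growth factor, was at 222 and 202 CPM in WT and 85.7, 96.8 and 162 CPM in i4F mice (edgeR adjusted p = 0.00397 without i4F 3).

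Complement and acute-phase genes were higher in 11 of 14 tested members (of 21) without i4F 3, and in 6 of 6 in cells with few markers of other types, with medians of 2.06 with all mice and 2.28 without i4F 3. C3, the central complement protein, was at 67.2 and 66.2 CPM in WT and 472, 459.8 and 123 CPM in i4F mice (edgeR adjusted p = 0.19, and 0.000393 without i4F 3). No i4F mouse overlapped the WT mice for C3, although stellate cells of i4F 3 held 1796 CPM of it. Saa3, a serum amyloid, was at 1.51 and 1.60 CPM in WT and 41.0, 43.3 and 0.97 CPM in i4F mice. Hp, haptoglobin, was at 1.81 and 2.52 CPM in WT and 48.4, 66.2 and 0.97 CPM in i4F mice. In i4F 3 each of these rests on 2 UMIs and lay below both WT mice. Slpi, a secreted inhibitor of leukocyte proteases, was at 3.93 and 56.1 CPM in WT and 232, 364 and 20.4 CPM in i4F mice.

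Interferon-stimulated genes were higher in 15 and lower in 1 of 27 tested members without i4F 3 (30 of 31 with all mice), with a median log2 difference of 0.81 with all mice and 1.22 without i4F 3. Ifitm3, which blocks virus entry, rose from 430.5 and 569.9 CPM in WT to 2256 and 2395 CPM in i4F 1 and 2, with 802 CPM in i4F 3 (edgeR adjusted p = 0.19, and 0.000508 without i4F 3). Irf7, a transcription factor that amplifies the interferon response, was at 23.3 and 25.6 CPM in WT and 58.1, 122 and 48.5 CPM in i4F mice (edgeR adjusted p = 0.00615 without i4F 3). Neither gene overlapped between i4F and WT mice. Irf1, which interferon gamma induces, went the other way, from 262 and 274 CPM in WT to 60.3 and 75.2 CPM in i4F 1 and 2, with 227 CPM in i4F 3 (edgeR adjusted p = 0.00076 without i4F 3). Cells with few markers of other types gave 11 of 18 higher and 1 lower.

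Antigen presentation genes had no higher call. Of the MHC class I genes and peptide loading factors, 16 of 17 were tested and 2 were lower without i4F 3, H2-Q4 and Psmb9. This share was near the 12.8% of all genes tested. The class I heavy chain H2-K1 was at 757 and 696 CPM in WT and 658, 669 and 814 CPM in i4F mice (log2 difference -0.026 ± 0.22, edgeR adjusted p = 0.965). H2-D1, another heavy chain, was at 718 and 771 CPM in WT and 681, 749 and 867 CPM in i4F mice (0.041 ± 0.22, edgeR adjusted p = 0.941). The groups overlapped for both. Of 6 MHC class II genes tested (of 7), 2 were lower without i4F 3, and the median log2 difference turned from 0.34 with all mice to -2.33 without i4F 3, with 0 of 1 called in cells with few markers of other types. Cd74, the MHC class II chaperone, was at 80.7 and 146 CPM in WT, 46.9 and 31.8 CPM in i4F 1 and 2 and 344 CPM in i4F 3, where 44 of the 527 ductal cells formed a sub-cluster led by Cd74, H2-Aa and the B cell gene Cd79a. Cd74 is also among the immune markers that limited the subset of cells with few markers of other types. Among ligands of NK cell receptors, 4 of 12 could be tested. Icam1, the ligand of LFA-1, was at 259 and 242 CPM in WT and 168, 256 and 436 CPM in i4F mice, and Pvr (CD155), the ligand of DNAM-1, at 225 and 154 CPM in WT and 104, 160.5 and 252 CPM in i4F mice. In neither did the groups separate (edgeR adjusted p = 0.805 and 0.88, and 0.468 and 0.219 without i4F 3). Nectin2, another DNAM-1 ligand, was lower without i4F 3, at 588 and 649 CPM in WT and 356, 417 and 685 CPM in i4F mice (edgeR adjusted p = 0.0273).

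Cell cycle genes showed the highest share of called members, and the largest loss of calls in cells with few markers of other types. Without i4F 3, 26 of 31 tested members (32 with all mice) were higher and 2 lower, with a median of 1.90 with all mice and 2.58 without i4F 3, against 7 higher and 2 lower of 26 in that subset. The subset held fewer cells, and the part of lost cells and depth in this loss of calls was not tested. Tubb5, a beta tubulin, rose from 230.4 and 231 CPM in WT to 965 and 680.2 CPM in i4F 1 and 2, with 221 CPM in i4F 3 and 2076 and 1648 CPM after caerulein (edgeR adjusted p = 0.00132 without i4F 3). Birc5 (survivin), a passenger protein of mitotic chromosomes, was at 0.302 and 1.83 CPM in WT, 44.0, 34.4 and 1.46 CPM in i4F and 216 and 194 CPM after caerulein (edgeR adjusted p = 0.000543 without i4F 3). i4F 3 lay within or below the WT range for both genes. Hmgb2, a chromatin protein, was lower besides Ccnd1, at 193 and 139.9 CPM in WT and 107, 94.3 and 175 CPM in i4F mice. Of the p53 and senescence genes, 17 of 19 were tested, 3 were higher and 1 lower. Bax, which permeabilizes mitochondria in apoptosis, was at 136 and 152 CPM in WT and 311, 298 and 133 CPM in i4F mice (edgeR adjusted p = 0.00397 without i4F 3). Cdkn1a, the p21 inhibitor of cyclin-dependent kinases, was at 759 and 917 CPM in WT and 528, 824 and 1719 CPM in i4F mice (edgeR adjusted p = 0.751, and 0.375 without i4F 3), highest in i4F 3.

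Of the duct transcription factors, 7 were lower and 2 higher of 19 tested members (of 23) without i4F 3, with a median of -0.36 with all mice and -0.47 without i4F 3. Onecut1 (HNF6), which acts upstream of duct formation, fell from 42 and 56.1 CPM in WT to 5.21 and 7.64 CPM in i4F 1 and 2, with 31.5 CPM in i4F 3 (edgeR adjusted p = 0.241, and 0.0011 without i4F 3). Prox1, a homeobox factor of the early pancreas, fell from 175 and 165 to 38 and 33.1 CPM, with 168 CPM in i4F 3 (edgeR adjusted p = 0.00112 without i4F 3). Pdx1, the master factor of the pancreatic bud, was at 29.5 and 38.5 CPM in WT and 14.2, 7.64 and 23.8 CPM in i4F mice (edgeR adjusted p = 0.0174 without i4F 3). Klf6, a zinc finger factor of injured epithelia, fell from 2920.1 and 2567 to 726 and 846 CPM, and i4F 3, at 2680.3 CPM, lay within the WT range. Id1, an inhibitor of helix-loop-helix factors, rose from 14.4 and 19.9 to 78.2 and 86.6 CPM, with 12.6 CPM in i4F 3 (edgeR adjusted p = 0.00076 without i4F 3). In cells with few markers of other types 4 of 17 members were lower and 1 higher, against 10.5% lower and 10.3% higher of all genes of that subset. Of the Notch, Hippo and Wnt pathway genes, 17 of 27 were tested, with 2 higher and 2 lower, shares not above those of all genes tested. Ctgf and Cyr61, both known targets of YAP, went opposite ways. Ctgf was at 11.3 and 29.8 CPM in WT and 184, 175 and 49.0 CPM in i4F mice (edgeR adjusted p = 0.00146 without i4F 3), and Cyr61 at 2842 and 1579.9 CPM in WT and 729, 809 and 2087 CPM in i4F mice (edgeR adjusted p = 0.00693 without i4F 3).

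Transport and junction genes had calls in both directions. Without i4F 3, both junction shares and the higher transport share were not above those of all genes tested (13.7% higher and 12.8% lower). The lower transport share was above. Of the duct transport genes, 16 of 22 were tested, with 2 higher and 4 lower, and in cells with few markers of other types 4 of 12 were higher and 1 lower (median log2 difference 0.60, against 0.17 in all ductal cells and 0.042 with all mice). Slc12a2, which loads chloride across the basolateral membrane, rose from 22.4 and 16.9 CPM in WT to 87.9 and 75.2 CPM in i4F 1 and 2, with 21.8 CPM in i4F 3 (edgeR adjusted p = 0.00399 without i4F 3). Slc5a1, the sodium-glucose cotransporter SGLT1, fell from 129 and 92.7 to 20.1 and 35.7 CPM, with 109 CPM in i4F 3 (edgeR adjusted p = 0.00299 without i4F 3). Atp1b1, a subunit of the sodium pump, was at 756 and 933 CPM in WT and 381, 511 and 845 CPM in i4F mice (edgeR adjusted p = 0.0192 without i4F 3). Among the junction genes, 20 of 21 were tested, with 2 higher and 2 lower, all of them claudins, which seal or open tight junctions. Cldn2, which forms cation- and water-permeable pores, rose from 12.2 and 10.8 CPM in WT to 178 and 152 CPM in i4F 1 and 2 and was at 17.0 CPM in i4F 3 and 153 and 185 CPM after caerulein (edgeR adjusted p = 0.194, and 0.000126 without i4F 3). Cldn10, also a pore-forming claudin, fell from 526 and 530.1 to 64.1 and 57.3 CPM, with 281 CPM in i4F 3 (edgeR adjusted p = 0.209, and 0.000246 without i4F 3). Cldn4 was higher in all 3 i4F mice, at 2081, 1849 and 1597 CPM against 950.0 and 735 CPM in WT (edgeR adjusted p = 0.00397 without i4F 3), and Cldn6 was lower, at 43.2, 39.5 and 62.1 against 84.2 and 73.3 CPM. Of the keratins, 7 of 12 were tested, with Krt7 higher and Krt80 and Krt23 lower without i4F 3, while Krt18 was at 9044 and 9691 CPM in WT and 11507, 11919.7 and 12544 CPM in i4F mice (edgeR adjusted p = 0.404) and its partner Krt8 at 8009 and 6656 CPM in WT and 8306, 9701 and 11444 CPM in i4F mice (edgeR adjusted p = 0.385).

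Immediate early genes, which respond within minutes to growth factors, stress or tissue dissociation, were lower in 10 and higher in 3 of 20 tested members without i4F 3, with a median of -0.47 with all mice and -1.24 without i4F 3. Fos fell from 5539 and 6097 CPM in WT to 1266 and 1253 CPM in i4F 1 and 2, with 4517 CPM in i4F 3 and 1959.6 and 1845 CPM after caerulein (edgeR adjusted p = 0.000393 without i4F 3). Egr1 fell from 3023 and 2367 CPM in WT to 525 and 741 CPM in i4F 1 and 2, with 2080.2 CPM in i4F 3 (edgeR adjusted p = 0.00115 without i4F 3). Atf3, a stress-induced repressor, fell from 5416 and 4447 to 1068 and 1723 CPM, while i4F 3, at 6167 CPM, lay above both WT mice (edgeR adjusted p = 0.00236 without i4F 3). i4F 3 was thus closer to the WT than to the other i4F mice for each. Fosl1, a partner of JUN, was higher, at 94.6, 205 and 177 CPM in i4F against 67.2 and 60.4 CPM in WT mice (edgeR adjusted p = 0.0285 without i4F 3). Of 15 heat-shock chaperones tested, 6 were lower without i4F 3, among them Hsp90aa1, at 1811 and 1952 CPM in WT and 834, 994 and 1625 CPM in i4F mice (edgeR adjusted p = 0.00732), whereas the endoplasmic reticulum chaperone Hspa5 was at 1657 and 1693 CPM in WT and 1265, 1326 and 1469 CPM in i4F mice (edgeR adjusted p = 0.145, without i4F 3). Whether the libraries differed in the handling of the tissue is not given in the sources used here, and its part in these values was not tested.

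The next comparison set the ductal cells of i4F mice beside those after caerulein, an injury without OSKM. The caerulein libraries carry names of another series (AM) than the i4F libraries (AL), and only the i4F mice received doxycycline. edgeR called 45 of 11619 genes (0.387%), 4 of them higher in i4F (0.0344%) and 41 lower (0.353%). Without i4F 3 it called 362 of 11197 (3.23%), 126 higher (1.13%) and 236 lower (2.11%). Over all genes, 36.6% did not overlap between the 3 i4F and the 2 caerulein mice. With the series of the library names as a term, which rests on the 2 WT mice since these carry a name of each series, edgeR called no gene with all mice (578 with an unadjusted p under 0.05) and 153 without i4F 3 (124 higher, 29 lower). Of the genes described next, Ifit1, Irf7, Stmn1, Mcm4, 1810009J06Rik and Gm2663 passed the threshold with this term and without i4F 3, and rtTA, Rtp4, Ifit3, Rsad2, Hells, Esco2, Hist1h1a, Muc20, Cxcl5 and Cxcl1 did not. DESeq2, without the term, called 256 genes with all mice. No gene was called by edgeR without i4F 2, caerulein 1 or caerulein 2 (1581, 910 and 1171 with an unadjusted p under 0.05). With all mice rtTA, Ifit1 and Rtp4 were among the higher ones. Ifit1, an interferon-stimulated RNA-binding protein, was at 30.5, 33.1 and 23.8 CPM in i4F, 2.58 and 0 CPM in caerulein and 19.2 and 16 CPM in WT mice (log2 difference from caerulein 3.96 ± 0.58, edgeR adjusted p = 0.0391, and 0.0136 without i4F 3). Rtp4, also induced by interferon, was at 55.1, 66.2 and 43.2 CPM in i4F and 13.3 and 12.5 CPM in caerulein mice (2.06 ± 0.32, edgeR adjusted p = 0.0448, and 0.0131 without i4F 3). Of 30 interferon-stimulated genes tested Ifit1 and Rtp4 were the 2 called, and without i4F 3 10 of 27 were higher, including Ifit3, Rsad2 and Irf7, and 4 of 27 with the series as a term as well.

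Among the 41 lower genes were several that dividing cells express. Stmn1, a microtubule destabilizer of dividing cells, was at 135, 124 and 139 CPM in i4F, 1100.1 and 990.3 CPM in caerulein and 135 and 188 CPM in WT ductal cells (log2 difference -2.98 ± 0.24, edgeR adjusted p = 0.0059, the smallest of the fit together with rtTA, and 0.00398 without i4F 3). Hells, a chromatin remodeller, was at 11.2, 5.09 and 2.91 CPM in i4F and 86.9 and 77.6 CPM in caerulein mice (edgeR adjusted p = 0.0254, and 0.0116 without i4F 3). In both, i4F 3 lay with the other i4F mice. Within the cell cycle group, Stmn1 and Mcm4 were called with all mice, and 25 of 31 were lower without i4F 3 (4 of 31 with the series as a term as well, with a median log2 difference of -1.49), with a median log2 difference of -2.93 with all mice and -2.29 without i4F 3, against 0.066 and 0.011 over all genes. 1810009J06Rik was also lower, at 0, 2.55 and 0 CPM in i4F against 45.6 and 70.1 CPM after caerulein, and acinar cells of the caerulein mice held 5085 and 3559 CPM of it. Esco2, Hist1h1a and Gm2663 were the other lower genes with the smallest p (edgeR adjusted p = 0.0241 for each). Gm2663, like 1810009J06Rik, was far higher in acinar cells of the caerulein mice (15020.4 and 9896 CPM) than in their ductal cells (129 and 173 CPM of the class total), and endothelial cells held 176 and 124 CPM.

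Injury genes had few calls between i4F and caerulein mice, as did all genes (0.387% with all mice and 3.23% without i4F 3). With all mice, Muc20, a membrane mucin, was the lower one, at 0.745, 0 and 0.97 CPM in i4F and 14.6 and 13.8 CPM in caerulein mice (-4.26 ± 0.66, edgeR adjusted p = 0.0448, and 0.0196 without i4F 3). The metaplasia group had a median log2 difference between i4F and caerulein of 0.038 with all mice and 0.22 without i4F 3, with 2 members higher and 1 lower of 34 in the latter (0 and 1 with the series as a term as well). Without i4F 3 and without that term, 1.13% of all genes were higher and 2.11% lower, so that the shares of this group were not below those. Mmp7, Cldn2 and Clu differed by -0.40 ± 0.17, -0.02 ± 0.20 and -0.036 ± 0.22 on the log2 scale without i4F 3 (edgeR adjusted p = 0.217, 0.976 and 0.953), and by -0.89 ± 0.64, -0.56 ± 0.73 and -0.40 ± 0.42 with all mice (edgeR adjusted p = 0.492, 0.725 and 0.656), which does not show that they were equal. Cxcl5 was higher in i4F than after caerulein without i4F 3 (1.72 ± 0.28, edgeR adjusted p = 0.0222), as was Cxcl1 (2.18 ± 0.41, edgeR adjusted p = 0.0326). With the series as a term and without i4F 3, the difference was -0.080 ± 0.40 for Cxcl5 and 2.72 ± 0.60 for Cxcl1 (edgeR adjusted p = 0.958 and 0.056). With all mice neither was called (1.14 ± 1.05 and 1.70 ± 0.77, edgeR adjusted p = 0.602 and 0.313). Lcn2 differed by 0.87 ± 0.27 without i4F 3 and 0.38 ± 0.68 with all mice (edgeR adjusted p = 0.121 and 0.811).

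A further comparison asked where ductal cells responded otherwise than acinar cells of the same mice, as an interaction in a fit of 12704 genes with the mouse as a block. edgeR called 10 genes with a higher response in ductal cells (0.0787%) and 15 with a lower one (0.118%), and 1264 (10%) and 1529 (12.2%) of 12581 without i4F 3. Without WT 1, WT 2, i4F 1 or i4F 2, edgeR called 0 (1409 with an unadjusted p under 0.05), 5, 12 and 6 genes in all. The 6 named lower ones were at most 55.6 CPM in WT acinar cells and higher in every i4F acinar sample, whereas their ductal levels moved less. The WT acinar cells were shallow, with 767407 and 817448 UMIs in all and medians of 431 and 502 per cell. The i4F acinar cells gave 2887026 to 4470144 UMIs per mouse. None of these acinar totals and medians includes UMIs of the enzyme genes that the deposited counts do not list. Levels in this comparison are on a TMM scale common to both classes. The class labels were given separately to the WT and i4F cells. Whether the border between ductal and acinar cells was alike in the groups was not tested. Krt19 went from 93.4 and 105 CPM in WT to 2637, 2492 and 956 CPM in i4F acinar cells, whereas in ductal cells it was at 803 and 674 CPM in WT and 497, 783 and 822 CPM in i4F mice (interaction -4.34 ± 0.57 on the log2 scale, edgeR adjusted p = 0.0118). Sfn, the epithelial 14-3-3 sigma protein, was at 55.6 and 26.2 CPM in WT and 1802, 1869 and 713 CPM in i4F acinar cells, and at 438 and 300.0 CPM in WT and 328, 414 and 641 CPM in i4F ductal cells (-4.84 ± 0.65, edgeR adjusted p = 0.0118). Gsta4, a glutathione transferase that clears products of lipid peroxidation, was at 1.99 and 7.47 CPM in WT and 221, 139 and 140.1 CPM in i4F acinar cells, and at 132 and 150.4 CPM in WT and 72.2, 68.2 and 101 CPM in i4F ductal cells (-5.92 ± 0.55, edgeR adjusted p = 0.00223). Ly6g6c, a gene of the LY6 family, had no UMI in WT acinar cells and was at 6224, 2475 and 12.8 CPM in i4F acinar cells. In ductal cells it was at 0.842 and 0.353 CPM in WT and 5.59, 5.61 and 0.378 CPM in i4F mice. Each of these genes kept its sign without i4F 3 and was called there too. With all mice, 1 of 10 keratins and 0 of 20 junction genes were called with a lower response in ductal than in acinar cells, and 8 and 15 without i4F 3.

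Among the higher responses, Gc, the vitamin D binding protein, went from 2.65 and 1.41 CPM in WT to 87.3, 62.6 and 4.16 CPM in i4F ductal cells and from 33.8 and 33.6 to 7.08, 2.38 and 5.76 CPM in acinar cells (7.28 ± 1.03, edgeR adjusted p = 0.0157). Ctgf, a matricellular growth factor, went from 9.02 and 23 to 138, 128 and 38.2 CPM in ductal cells and from 5.96 and 85.9 to 39.7, 11.4 and 3.84 CPM in acinar cells (3.94 ± 0.68, edgeR adjusted p = 0.0476), where the WT mice themselves differed. Slc7a5, an amino acid transporter, was at 0.842 and 0.53 CPM in WT and 7.83, 10.3 and 1.89 CPM in i4F ductal cells, and at 101 and 29.9 CPM in WT and 29.0, 45.7 and 26.9 CPM in i4F acinar cells. Tagln, a smooth muscle gene, was at 337, 73.8 and 70.7 CPM in i4F ductal cells against 13.8 and 19.1 CPM in WT. In cells with few markers of other types its ductal difference between i4F 1 and 2 and WT was 1.18 (edgeR adjusted p = 0.325). Tagln is itself among the stellate markers that chose these cells, so that a smaller difference there was partly fixed in advance. For Reg3a the WT acinar values, 8884 and 80.3 CPM, lay on both sides of those of i4F 1 and i4F 2.

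The share of ductal cells among all cells was 2.43%, 2.57% and 6.92% in i4F 1, 2 and 3, and 17.4% and 9.82% in the WT mice. All i4F mice lay below both WT mice, with means of 3.97% ± 2.56 (SD, n = 3) and 13.6% ± 5.36 (SD, n = 2) and a difference of -9.64 points (p = 0.2 in an exact permutation test, two-sided, below which 2 against 3 mice cannot go, and 0.4 adjusted over 2 tests). After caerulein the share was 2.21% and 3.38%. Since immune cells enter the denominator, the share among ductal and acinar cells was also taken, at 28.6%, 20.7% and 19.8% in i4F, 46.9% and 40.4% in WT and 17.8% and 17.9% in caerulein mice. i4F 3 had the highest i4F share of all cells and the lowest of ductal and acinar cells. How well each cell type survived the dissociation was not measured. The shares also rest on labels given separately to the WT and i4F cells, and the part of these labels was not tested.

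UMIs of the proliferation genes Mki67 or Top2a were rare in i4F ductal cells. Each cell was thinned to 1000 UMIs, which kept 214, 195 and 487 cells of the i4F, 671 and 572 of the WT and 317 and 218 of the caerulein mice. They were then found in 4 of 214, 2 of 195 and 0 of 487 i4F cells (1.87%, 1.03% and 0%, the last allowing up to 0.616%). The WT shares were 0% and 0.350% and the caerulein shares 10.7% and 12.8%. The difference between i4F and WT was 0.790 points (p = 0.6 in the same exact permutation test, and 0.6 adjusted over 2 tests). Not thinned, the shares were 6.30%, 3.32% and 0.190% in i4F, 1.20% and 1.13% in WT and 37.1% and 30.3% in caerulein mice.

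**Figure D5:**
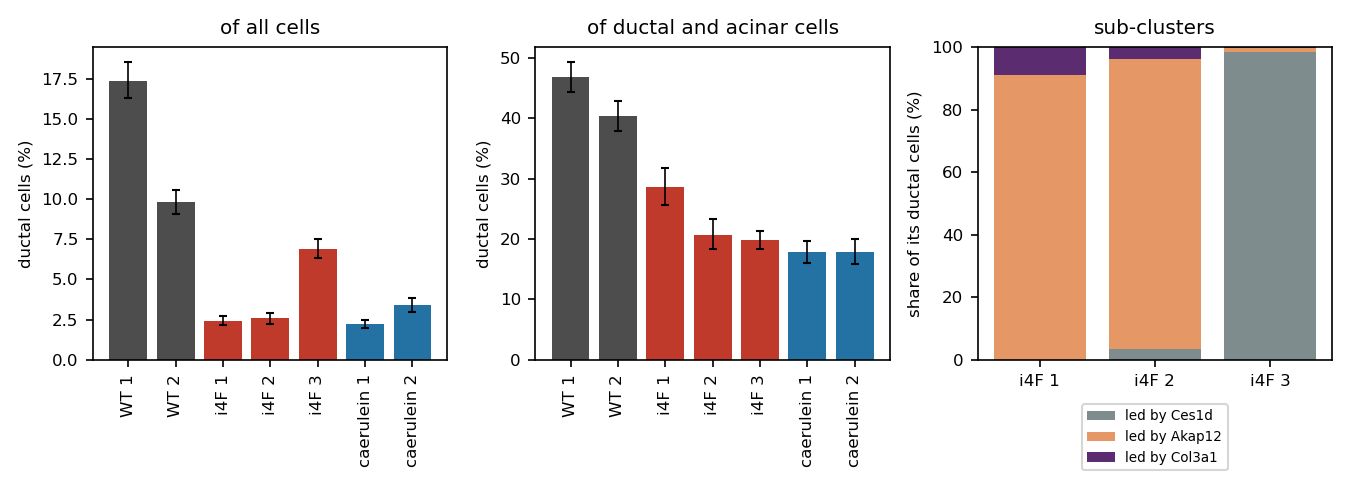
Left and middle, percent of all cells and of ductal and acinar cells that were ductal, 1 bar per mouse with the exact 95% binomial interval (counting error alone), and right, percent of the ductal cells of each i4F mouse in 3 sub-clusters named by their leading gene. The i4F bars lie below the WT bars in both share panels, and the sub-cluster led by Ces1d holds 98.3% of the cells of i4F 3.

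Clustered anew, the 976 i4F ductal cells fell into 3 sub-clusters that largely followed the mouse. The largest, of 525 cells, held 0, 7 and 518 cells of i4F 1, 2 and 3 and was led by Ces1d, a carboxylesterase, Pla2g1b, the acinar phospholipase, and Fmo2. A sub-cluster of 420 cells held 217, 196 and 7 cells and was led by Akap12, Cxcl2, Fabp5, Tff1, Lyz2 and Lcn2. The third, of 31 cells (21, 8 and 2), was led by the collagen genes Col3a1, Col1a2 and Col1a1 and had a median of 15033 UMIs per cell, against 3322 and 2560 in the others. Of the 10 genes leading these 31 cells, 5 were stellate markers. At a resolution of 0.5 there were 8 sub-clusters. Sub-clusters of 269, 212 and 44 cells held 262, 212 and 44 cells of i4F 3, the first led by Pla2g1b and Fos and the second by Ankrd1 and Palld. The cells of i4F 1 and i4F 2 then parted into 195 cells led by Trf, Cxcl5, Lcn2 and C3 (86, 106 and 3 cells of i4F 1, 2 and 3), 108 cells led by Akap12, Ctgf and Asns (50, 57 and 1) and 100 cells led by Tff1 and Cda (69, 29 and 2). Tff1 leads these by its level and not by the number of cells, since its UMIs came from 8, 1 and 2 ductal cells of i4F 1, 2 and 3. A further 17 cells (12, 4 and 1) were led by the macrophage genes Lyz2, Il1b and C1qa. The leading genes defined the sub-clusters and are a description.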

How the data were processed

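Single-cell RNA sequencing libraries (10x 3′ chemistry) of whole pancreas from 2 WT, 3 i4F and 2 caerulein mice were used. The authors deposited a table of UMI counts per gene and cell for each condition, made with Cell Ranger and the mouse build mm10 per the submitters' processing notes, and a table of cell annotations. The deposited percent of mitochondrial UMIs per cell was used only to check the stated filters (cells with under 150 genes or over 5% removed). The study's methods name a SoupX correction for free RNA, but whether it came before these counts is not stated. All values were whole numbers and cell totals matched those of the annotation. Genes that a table does not list counted as 0 UMIs there. Cell types are the authors' annotation, which per the study's methods was made by hand and separately for the WT and i4F cells.

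Counts of the ductal cells were summed per mouse and tested with edgeR 4.0.16 (quasi-likelihood test, filterByExpr, TMM scaling, Benjamini-Hochberg adjusted p under 0.05), fitted to the 3 groups together (7 mice, 4 residual degrees of freedom). The response of ductal against acinar cells was an interaction term with the mouse as a block. DESeq2 1.42.0 was an alternative. Shares were compared by exact two-sided permutation tests, and intervals and limits for 0 (3 counts) cover counting error alone. Cells were clustered with Seurat 5.3.0 (20 principal components, resolution 0.2). On simulated counts with 200 changed genes, the fit recovered 8% of 2-fold and 85% of 4-fold changes for i4F against WT. The simulation gave a gene the same change in every i4F mouse and a spread set by its level alone. It does not cover a library that departs from its group, as i4F 3 did, so these rates need not hold here. Larger changes, such as those of Lcn2 and Mmp7, were not called with all mice. Scrublet marked 0 of 7614 cells of i4F 3 and 2 of 4327 of WT 1, where it had not worked, so that removal of the cells with the highest scores at the expected rate was added. Replicates are separate mice per the labels.

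The text names the called genes of largest change with at least 4 log2 CPM on average and, between groups of mice, no overlap (up to 12 per direction for WT, 6 otherwise), and those of smallest unadjusted p where under 5 passed. Of each list, members past the threshold and the 3 highest were eligible, and the members named without i4F 3 were picked after their values were seen. Some genes that the rule names are not reported here. Members and lists were chosen with earlier results of these data known. Promoter sequences are from RefSeq (GRCm38.p6) and gene positions and untranslated regions from GENCODE vM21 (GRCm38). Alternatives were no TMM scaling, no filter, removal of doublets, of cells under 500 genes, of cells with an immune UMI (6 genes) or with more than 2 markers of other types, a replicate block, the series of the library names as a term, the 2 compared groups alone and each mouse left out.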

Additional observations from a re-analysis of the deposited data

Results flagged for a closer look

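The response to i4F (the log2 difference between i4F and WT mice) differed between ductal and acinar cells of the same mice in 13 of the genes described, by the interaction term in edgeR (adjusted p 0.0022 to 0.0476 with all mice). It was higher in ductal cells by 7.28 for Gc, 4.68 for Reg3a, 4.01 for Slc7a5, 3.94 for Ctgf, 3.29 for Tagln and 2.89 for Pmp22, a myelin and junction membrane protein. Without i4F 3 these differences were 8.04, 4.60, 4.53, 3.90, 3.07 and 3.11. It was lower in ductal cells for Ly6g6c (-13.28), Sdcbp2 (-10.79), Tspan8 (-5.92), Gsta4 (-5.92), Sfn (-4.84), 2200002D01Rik (-4.75) and Krt19 (-4.34), and without i4F 3 the values were -13.62, -11.04, -5.84, -6.21, -5.52, -4.79 and -4.93. All 13 were called without i4F 3 as well. For Reg3a, which acinar cells secrete, the part of free RNA in the ductal level was not tested. The fitted values of Ly6g6c and Sdcbp2 rest on WT acinar samples with no UMI, depend on the prior count and are no bounds. Pmp22 was at 19.5 and 25.8 CPM in WT and 38.6, 42.1 and 17.0 CPM in i4F ductal cells, and at 77.5 and 119.6 CPM in WT and 22.7, 17.4 and 14.7 CPM in i4F acinar cells. 2200002D01Rik was at 7.22 and 17.1 CPM in WT and 147, 140.2 and 17.0 CPM in i4F ductal cells, and at 1.99 and 0 CPM in WT and 419, 246 and 38.4 CPM in i4F acinar cells.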

How the results depend on the processing

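The counts of called genes depended on the library labelled i4F 3 and on the filter and tool. Between i4F and WT, edgeR called 1 gene with all mice, 0 to 2966 when 1 mouse was left out (0 without WT 1 or WT 2), 1311 without the filter on low counts (886 higher, 425 lower), 373 with DESeq2 (348 higher, 25 lower), 4 in cells with few markers of other types, 2 without cells holding an immune UMI, 2 without the highest Scrublet scores and 0 with the series of the library names as a term (1427 with an unadjusted p under 0.05). Without i4F 3 the count was 1380 in cells with few markers of other types, 1837 without cells holding an immune UMI (932 higher, 905 lower), 2283 with DESeq2 (1404 higher, 879 lower) and 3239 with the series as a term (1805 higher, 1434 lower). With the series as a term, WT 2 serves to set that term, since WT 1 alone of the WT mice shares the series of the i4F libraries. The i4F mice are then compared with WT 1 alone. The counts of 0 and 3239 are therefore no check of the comparison with both WT mice. Without i4F 3 and without TMM scaling the count was 3210 (1171 higher, 2039 lower). Of these calls 36.5% were higher, against 51.8% with TMM and 61.5% with DESeq2. Leaving out TMM moved the median log2 difference of all genes from -0.054 to -0.25 without i4F 3, and, with all mice, that of the ductal against acinar response from -0.23 to -0.47.

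Between i4F and caerulein, 45 genes were called with all mice, 0 to 362 with 1 mouse left out, 24 with these groups alone, 80 in cells with few markers of other types, 101 without cells holding an immune UMI, 130 without Scrublet doublets, 257 without the highest scores, 256 with DESeq2, 843 without the filter and 0 with the series of the library names as a term (578 with an unadjusted p under 0.05, added after seeing the data). Without i4F 3 they were 153 with that term (124 higher, 29 lower, against 126 and 236 without it), 269 in cells with few markers of other types, 299 without cells holding an immune UMI, 422 without TMM and 452 with DESeq2. For the ductal against acinar response, 25 genes were called with all mice, 0 to 2793 with 1 mouse left out, 4 without the mouse block, 11 without TMM, 71 in cells with at least 500 genes, 413 with DESeq2 and 1013 without the filter. Fits without the filter test genes of a few UMIs. Beyond these the cause of the changes was not tested. None of the 24, 12 and 12 genes named for their own change or p in the 3 comparisons changed sign in the alternatives run. For the comparisons with WT and caerulein these genes were chosen for groups that did not overlap, so that a change of sign was hardly possible and its absence is no support. Of the other genes described, H2-D1, Cd74, Icam1 and Cdkn1a differed from WT by 0.041, 0.35, 0.20 and 0.29 with all mice and by -0.057, -1.49, -0.24 and -0.31 without i4F 3, where edgeR called Cd74 (adjusted p = 0.0121).

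With the replicate number as a block, 2232 genes were called between i4F and WT (1179 higher, 1053 lower) and 93 between i4F and caerulein (30 higher, 63 lower), and with the replicate block in place of the mouse block 18 for the response. No other group has a mouse numbered 3, so that the block takes i4F 3 out of the difference. The deviations of mice with the same number correlated at -0.143 (WT 1 and i4F 1), 0.0114 (WT 2 and i4F 2) and -0.313 (WT and caerulein, both numbers). Between i4F and caerulein they correlated at 0.123 (number 1) and -0.0367 (number 2). With 2 mice in a group the deviations of 1 mirror those of the other. These values therefore cannot show whether the numbers pair the mice.

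The difference in the share of ductal cells ranged from -13.4 to -5.85 points with 1 mouse left out, and was -11.1 without i4F 3 (exact permutation test, p = 0.333, the smallest possible there). It was -8.01 among non-immune cells, -12.4 in cells with at least 500 genes, -9.55 without Scrublet doublets and -9.30 without the highest scores. The difference in cells with Mki67 or Top2a ranged from 0.338 to 1.27 points with 1 mouse left out and was 0.525 at 500 UMIs. At a resolution of 0.5 the 3 sub-clusters became 8. With 2 or 3 mice a group, changes of 2-fold were mostly not detectable.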

Other observations

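The ductal cells of i4F 3 differed from those of i4F 1 and i4F 2 also in the listed acinar markers (10 of 29), which summed to 1306 CPM, against 124 and 211 CPM in i4F 1 and i4F 2 and 678 and 585 CPM in the WT mice. Its stellate markers, at 600.4 CPM, lay below those of both WT mice (1066 and 1168 CPM), and its markers of proliferating cells, at 18.8 CPM, lay within the WT range (9.44 and 28.2 CPM), against 258 and 118 CPM in i4F 1 and i4F 2. In acinar cells, Krt19 was at 517 CPM of the class total in i4F 3, between the WT mice (61.2 and 68.5 CPM) and i4F 1 and i4F 2 (2109 CPM each), whereas Reg3a was higher in acinar cells of i4F 3 (10856 CPM) than in those of i4F 1 and i4F 2 (6365 and 7092 CPM).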
